A study of Homo sapiens with 12 samples.

Results

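The integrated stress response genes described here are ATF4, ATF3, DDIT3, DDIT4, TRIB3, CHAC1, ASNS, SESN2, PPP1R15A and XBP1. They were taken as a list of symbols and found among 57820 gene IDs by pairing IDs with symbols. All 10 were found, and all 10 were among the 16999 genes that passed the filter on low counts and were tested. The samples were 12 libraries of poly(A) RNA from the cell line AsPC-1, established from a human pancreatic tumour. Cells were transfected with siRNA, either scrambled (siControl) or directed at ARNT (siARNT), and were held in air-like oxygen (normoxia, 21% O2) or at 1% O2 for 24 h (hypoxia). Crossing oxygen with siRNA gave 4 groups, each with 3 replicates, A, B and C. RNA of all groups was taken 48 h after transfection, so the controls were transfected too. Per the labels, wells were seeded in triplicate and divided after transfection. Nothing says that the replicates were separate experiments, so the p-values measure the spread between these samples, which may be technical.

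In the integrated stress response, kinases that sense missing amino acids, misfolded protein in the endoplasmic reticulum (ER), missing haem or double-stranded RNA phosphorylate the translation factor eIF2 on its alpha subunit. Most translation then slows, while translation of ATF4 mRNA goes up, and the ATF4 protein switches on genes for amino acid supply, redox balance and, under lasting stress, cell death. Severe lack of oxygen is a known trigger of this response in cultured cells. ATF4 is controlled to a large degree by translation, which mRNA counts do not measure. ARNT protein pairs with each HIF alpha subunit to form active HIF, and the study used siARNT to lower HIF activity.

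The sequences below are the parts of 4 regions to which the results refer. DDIT4 is a known target of HIF, and its upstream window is shown because DDIT4 was the member with the largest change. The first run is the DNA before the RefSeq start of DDIT4 (GRCh38.p14, chr10:72273674-72273919, plus strand), without bases inside an annotated exon. Its capitals mark the core of the HIF binding element, ACGTG, which starts 125 bases before the start site. The next 2 runs are 30-base stretches upstream of the RefSeq starts of ASNS (chr7:97872458-97872487, minus strand) and CHAC1 (chr15:40953251-40953280, plus strand), which lie inside exons of other GENCODE 29 transcripts of these genes. Their capitals mark matches to TGATGNAA, the letters of an amino acid response element to which ATF4 can bind, and the CHAC1 match is on the opposite strand. The last run is from a coding exon of XBP1 (GENCODE 29, GRCh38, chr22:28796047-28796192, minus strand), with 30 bases on each side of the 26-base segment that the enzyme IRE1 is known to remove in ER stress, in capitals as the deposited event places it.
DDIT4 upstream: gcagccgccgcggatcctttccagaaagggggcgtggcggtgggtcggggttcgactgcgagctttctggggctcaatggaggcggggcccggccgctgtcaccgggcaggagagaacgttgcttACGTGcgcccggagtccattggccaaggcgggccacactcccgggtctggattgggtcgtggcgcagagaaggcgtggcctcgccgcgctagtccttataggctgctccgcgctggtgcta
ASNS upstream: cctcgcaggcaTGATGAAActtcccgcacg
CHAC1 upstream: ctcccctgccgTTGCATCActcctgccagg
XBP1 exon: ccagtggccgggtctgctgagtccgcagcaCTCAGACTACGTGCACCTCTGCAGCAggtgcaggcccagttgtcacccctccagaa

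The motifs were searched on both strands of the 250 bases before the first listed RefSeq start of each gene. ACGTG was found in 3 of 10 members (ATF4, DDIT4 and XBP1) and in 18.7% of 27305 windows of the same length. TGATGNAA was found in 3 members (ATF3, CHAC1 and ASNS) and in 3.19% of all windows. TGACGTCA, the cyclic AMP response element, was found in PPP1R15A and in 1.77% of all windows. The ER stress response element, written as CCAAT and CCACG with 9 bases between them, was found in XBP1 and in 0.0806% of all windows. A match is a description of these letters and not a measured binding site.

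Library depth was 38.53 to 84.34 M gene counts. ARNT itself, the target of the siRNA, was lower in siARNT by 2.22 on the log2 scale in normoxia (log2 fold change -2.22, SE 0.070) and by 2.17 in hypoxia (log2 fold change -2.17, SE 0.070). A list of 12 HIF1A targets served as a check of the hypoxia and was chosen with earlier results of these data known. It had 12 of 12 called higher in hypoxia siControl (median log2 fold change 2.09). Of all tested genes, 10.4% were called higher there. In hypoxia siARNT 5 of the 12 were called higher (median 0.46), where 2.21% of all tested genes were. That count was 2 to 10 in other settings. With siARNT in hypoxia 11 of the 12 were called lower (median -1.71), where 14.7% of all tested genes were. Ductal epithelial markers, over 9 genes, summed to 5516 to 8420 CPM (counts per M gene counts, with TMM scaling) in normoxia siARNT, against 3946 to 4470 CPM in normoxia siControl, 4045 to 5043 CPM in hypoxia siControl and 4381 to 5980 CPM in hypoxia siARNT. With siARNT in normoxia 6 of the 9 were called higher (median 0.60), where 9.42% of all tested genes were. Leaving out 1 library at a time gave 2 to 7 of the 9, with 2 without normoxia siControl A or C. The 5 immune markers summed to at most 1.76 CPM, with CD3E at 0 counts in all 4 groups, and the 3 endothelial markers found summed to at most 0.966 CPM. The 6 fibroblast markers summed to 568 to 594 CPM in hypoxia siControl and to 336 to 469 CPM in the other groups. Nearly all of this was LUM, at 578 ± 13.2 CPM in hypoxia siControl, while COL1A1 and COL1A2 did not pass the filter. LUM moved with the hypoxia siControl group in which DDIT4 was high, and its part in that result was not tested. In bulk RNA, fewer cells of a kind and less RNA per cell cannot be told apart.

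A pair of libraries stood apart in the GC content of the genes they favoured. Per 10 percentage points of GC, a gene's log2 CPM was shifted by 0.424 in normoxia siARNT B and by 0.238 in hypoxia siARNT C, against -0.205 to 0.12 in the other 10. The members' exons span 41.5% GC (XBP1) to 62.6% GC (CHAC1). In normoxia siARNT B, 8 of the 10 members had the highest value of their group, and the 2 members with the lowest value were ASNS and XBP1. In hypoxia siARNT C, 7 of the 10 members had the highest value of their group, and again ASNS and XBP1 had the lowest. For members called in a comparison that uses these libraries, values without them are given below.

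**Figure D1:**
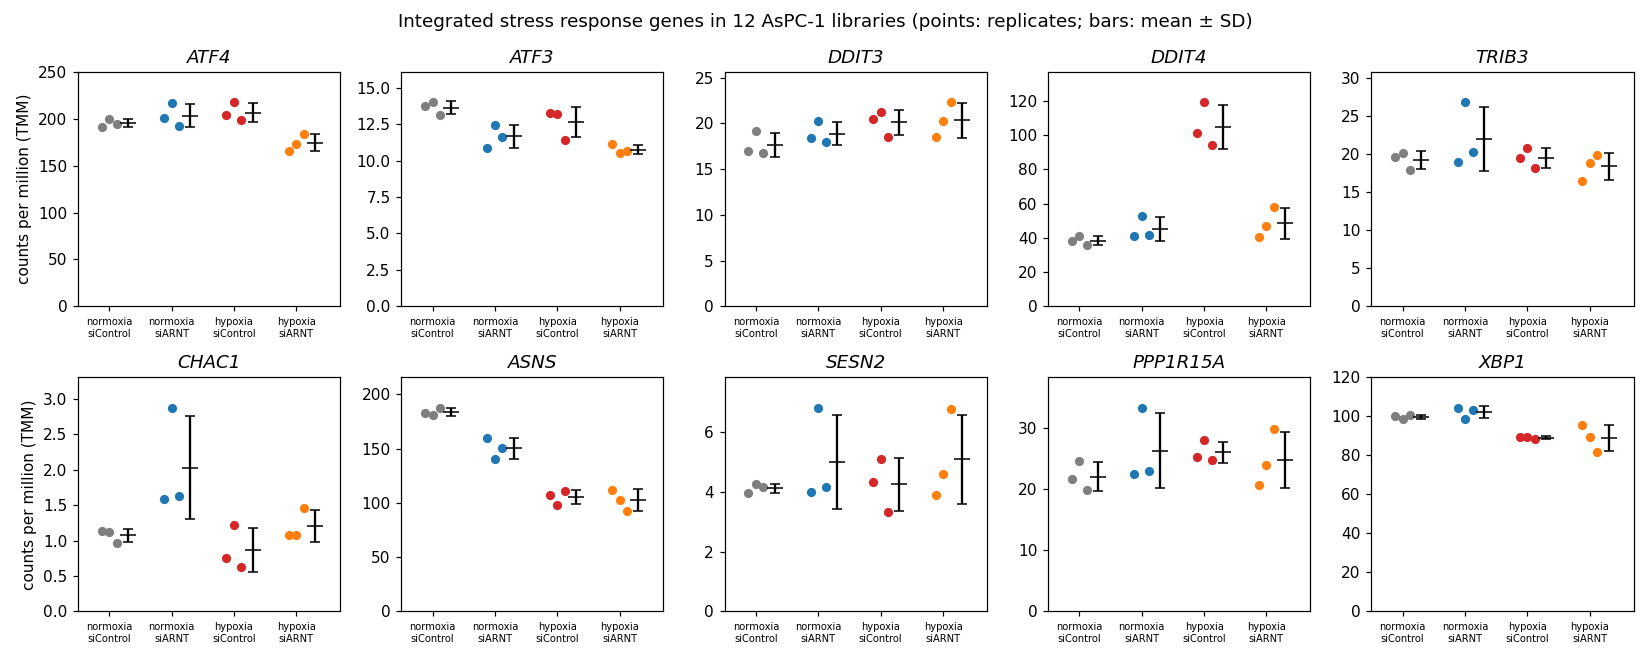
Each panel shows 1 gene, with CPM on an axis that starts at 0 and 1 point per library in replicate order A, B, C. Bars are the mean ± SD of 3 replicates, and DDIT4 sits between 94.2 and 119 CPM in hypoxia siControl, above the 35.8 to 58.1 CPM of the other groups.

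Levels between genes were compared as CPM per kb of exon, over the exons of all annotated transcripts of a gene together. The order depends on these lengths, which were 2514 bases for ATF4 and 4455 for ASNS. Before division by length, ATF4 averaged 195 CPM and ASNS 184 CPM in normoxia siControl. In normoxia siControl, ATF4 was highest, at 77.7 ± 1.71 CPM per kb (SD, n = 3). It was followed by ASNS at 41.3 ± 0.784, XBP1 at 32.9 ± 0.300, DDIT4 at 18.6 ± 1.30 and DDIT3 at 13.5 ± 1.01 CPM per kb. PPP1R15A stood at 7.11 ± 0.778, TRIB3 at 5.60 ± 0.338, ATF3 at 3.38 ± 0.110 and SESN2 at 1.20 ± 0.0445 CPM per kb. CHAC1 was lowest, at 0.522 ± 0.0463 CPM per kb. No neighbours in this order overlapped between libraries in either siControl group. In normoxia siARNT the libraries overlapped between XBP1 and ASNS, between PPP1R15A and TRIB3, and between SESN2 and CHAC1. In hypoxia siARNT they overlapped between XBP1 and DDIT4 and between DDIT4 and ASNS. DDIT4 took the second place in hypoxia siControl, at 50.9 ± 6.27 CPM per kb.

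The comparison of hypoxia with normoxia in siControl cells asked what low oxygen does with HIF activity intact. DDIT4 rose and ASNS fell, and the other 8 members did not pass the test, ATF4, DDIT3 and CHAC1 among them. So 2 of 10 members were called, 1 higher and 1 lower, where 25.3% of all tested genes were called (10.4% higher and 14.9% lower). The median log2 fold change of the 10 members was 0.03, and that of all genes was 0.02. A gene was called when its adjusted p was under 0.05 in edgeR's quasi-likelihood test with Benjamini-Hochberg adjustment over 16999 genes.

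DDIT4 (chr10:72273920-72276036 in GRCh38), also known as REDD1, encodes an inhibitor of the growth kinase complex mTORC1. It stood at 38.0, 41.1 and 35.8 CPM in normoxia siControl and at 101, 119 and 94.2 CPM in hypoxia siControl. With siARNT it stood at 40.9, 53.0 and 41.4 CPM in normoxia and at 40.4, 47.1 and 58.1 CPM in hypoxia. The 3 hypoxia siControl libraries did not overlap any other, while the hypoxia and normoxia libraries of siARNT overlapped. In siControl the rise was 2.73-fold (log2 fold change 1.45, SE 0.144, edgeR adjusted p 3.57e-05). In siARNT the log2 fold change in hypoxia was 0.10 (95% interval -0.17 to 0.38, edgeR adjusted p 0.696). The interaction, in which the siControl change is subtracted from the siARNT change, was -1.35 (SE 0.201, edgeR adjusted p 0.00381). Under a correction for GC content the interaction was -1.05, and the hypoxia change in siARNT was 0.25 and passed the test (edgeR adjusted p 0.00219). Without hypoxia siARNT C, the highest DDIT4 value in its group, the interaction was called as well (log2 fold change -1.50), as it was without normoxia siARNT B (-1.20). For siARNT in hypoxia DDIT4 was at -1.11, and at -1.26 without hypoxia siARNT C.

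ASNS (chr7:97852118-97872542), asparagine synthetase, makes asparagine from aspartate and glutamine and is a textbook ATF4 target. It stood at 183, 181 and 188 CPM in normoxia siControl and at 108, 97.9 and 111 CPM in hypoxia siControl. With siARNT it stood at 160.2, 141 and 150.4 CPM in normoxia and at 112, 103 and 92.7 CPM in hypoxia. Hypoxia and normoxia did not overlap with either siRNA, and the hypoxia libraries of both siRNAs overlapped. Hypoxia lowered ASNS by 0.80 in siControl (log2 fold change -0.80, SE 0.078, edgeR adjusted p 2.65e-05) and changed it by -0.55 in siARNT (SE 0.0778, edgeR adjusted p 0.00453). The difference between these changes was 0.25 (SE 0.11) and did not pass the test (edgeR adjusted p 0.217). The change in siARNT was -0.59 without normoxia siARNT B (edgeR adjusted p 0.00426) and -0.48 without hypoxia siARNT C (edgeR adjusted p 0.0135). Fitted on the 6 siARNT libraries alone, it was -0.53 with an edgeR adjusted p of 0.0938.

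**Figure D2:**
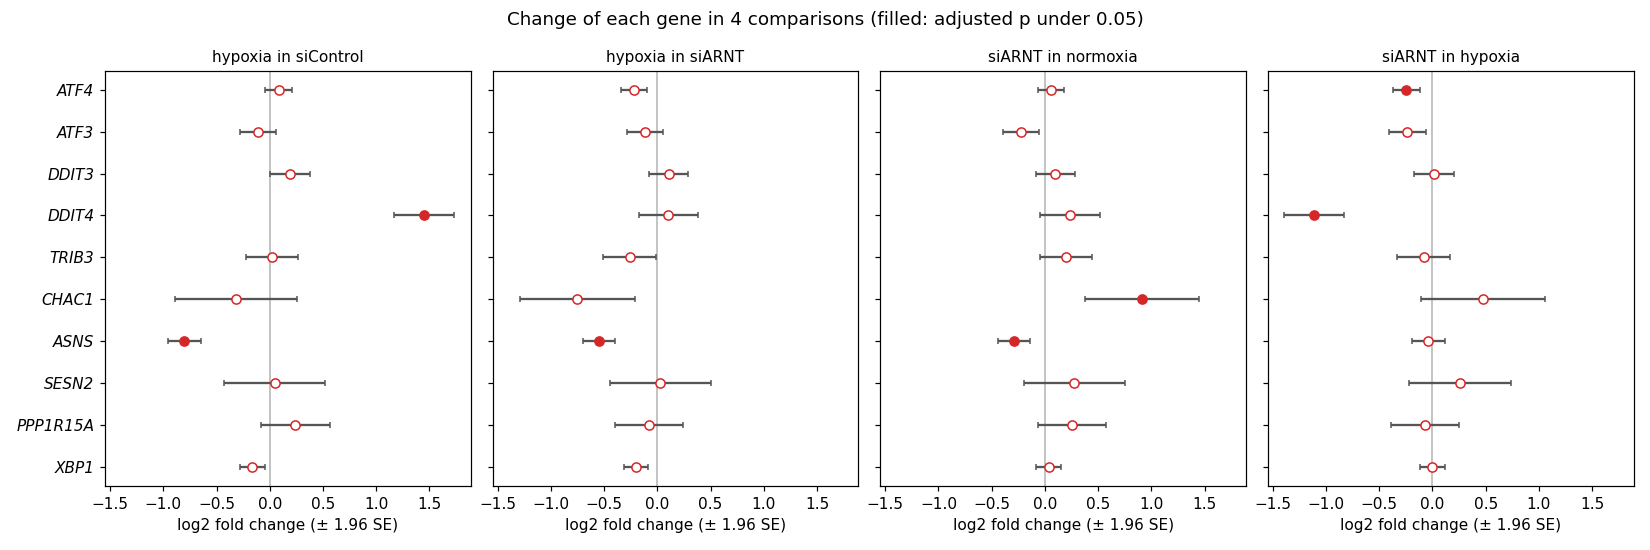
Points are the log2 fold change of each gene in the 4 comparisons, bars are 95% intervals from the standard error, and filled points passed an adjusted p of 0.05. The bars use the normal quantile and are narrower than the test's own intervals. DDIT4 is at 1.45 for hypoxia in siControl and at -1.11 for siARNT in hypoxia, and ASNS is at -0.80 for hypoxia in siControl.

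In siARNT cells, 1 of 10 members was called for hypoxia, ASNS, against 4.09% of all genes called (2.21% higher and 1.89% lower). That share was 0.741% without hypoxia siARNT B, 0.8% with a block for the transfected well and 0.135% with only the 6 siARNT libraries. For the interaction, 1 of 10 members was called, DDIT4, which was lower, against 4.69% of all genes (2.49% higher and 2.19% lower). The median log2 fold change of the members for hypoxia in siARNT was -0.16, and that of all genes was -0.04. Both oxygen comparisons use different libraries for their controls.

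The comparison of siARNT with siControl asked what changes with less ARNT at each oxygen level. In hypoxia DDIT4 and ATF4 were lower with siARNT, so 2 of 10 members were called, both lower, where 29.1% of all genes were called (14.4% higher and 14.7% lower). In normoxia CHAC1 was higher and ASNS lower, so 2 of 10 members were called where 20.2% of all genes were called (9.42% higher and 10.8% lower). The interaction and the comparisons here share libraries with the oxygen comparisons above. The values of each are therefore given side by side and not as independent evidence.

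ATF4 (chr22:39519695-39522685), the central transcription factor of the response, was the most abundant member per kb in all 4 groups. It stood at 192, 200.1 and 194 CPM in normoxia siControl and at 204, 218 and 199 CPM in hypoxia siControl. With siARNT it stood at 201, 217 and 193 CPM in normoxia and at 166, 174 and 184 CPM in hypoxia. The 3 hypoxia siARNT libraries were below all other libraries. In hypoxia siARNT changed ATF4 by -0.24 (log2 fold change, SE 0.0629, edgeR adjusted p 0.0119). With scaling by total counts this was -0.16 (edgeR adjusted p 0.111), and with the 6 hypoxia libraries alone it was -0.22 (edgeR adjusted p 0.0573), neither of which passed the test. Without hypoxia siARNT C it was -0.28 (edgeR adjusted p 0.00911). For hypoxia in siControl the log2 fold change of ATF4 was 0.08 (95% interval -0.04 to 0.20). For hypoxia in siARNT it was -0.22 (95% interval -0.35 to -0.10), and the libraries did not overlap. It did not pass edgeR's test (adjusted p 0.07) and did pass DESeq2's (adjusted p 0.041). The interaction of ATF4 was -0.30 and did not pass (edgeR adjusted p 0.0776), but did with DESeq2 (adjusted p 0.042) and without hypoxia siARNT C (-0.34, edgeR adjusted p 0.044).

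CHAC1 (chr15:40952962-40956519) encodes an enzyme that breaks down glutathione and is a target of ATF4. It had 29 to 167 counts per library, the fewest of the 10 members. It stood at 1.14, 1.12 and 0.965 CPM in normoxia siControl and at 1.59, 2.88 and 1.63 CPM in normoxia siARNT. In hypoxia it stood at 0.754, 1.22 and 0.622 CPM in siControl and at 1.08, 1.08 and 1.46 CPM in siARNT. The normoxia groups did not overlap, and the highest value, 2.88 CPM, was in normoxia siARNT B, which favoured GC-rich genes most. The log2 fold change of siARNT in normoxia was 0.91 (SE 0.274, edgeR adjusted p 0.037). Without normoxia siARNT B it was 0.57 (edgeR adjusted p 0.135), and with a GC correction 0.29 (edgeR adjusted p 0.147). It also failed the test without each normoxia siControl library in turn, without hypoxia siControl A and without hypoxia siARNT B (edgeR adjusted p from 0.051 to 0.126). For hypoxia the log2 fold change of CHAC1 was -0.32 in siControl and -0.75 in siARNT, neither of which passed, and with the GC correction it was -0.60 and -0.49, both of which passed (edgeR adjusted p 0.00866 and 0.0314).

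For ASNS the siARNT change in normoxia was -0.29 (SE 0.0774, edgeR adjusted p 0.0236), and the normoxia groups did not overlap. Ductal epithelial markers were higher in the same comparison (given above), and their part in the CHAC1 and ASNS changes was not tested. It failed the test without normoxia siARNT B (-0.25, edgeR adjusted p 0.0701) and without each normoxia siControl library in turn (edgeR adjusted p from 0.0548 to 0.0795). In hypoxia the siARNT change of ASNS was -0.04 (95% interval -0.19 to 0.11).

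The other transcription factors of the list are ATF3, DDIT3 and XBP1. ATF3 (chr1:212565334-212620777), a stress-induced factor, ran from 13.1 to 14.0 CPM in normoxia siControl and from 10.5 to 11.1 CPM in hypoxia siARNT. With siARNT its log2 fold change was -0.23 in normoxia and -0.23 in hypoxia, and neither passed the test (edgeR adjusted p 0.0814 and 0.0655). Without hypoxia siControl C the change in hypoxia was -0.31 and passed (edgeR adjusted p 0.0248). The siControl and siARNT libraries of ATF3 did not overlap at either oxygen level. DDIT3 (chr12:57516588-57521737), also called CHOP and known for its part in stress-induced cell death, ran from 16.8 to 22.3 CPM over all libraries. Its log2 fold change for hypoxia in siControl was 0.19 (95% interval 0.00 to 0.37), which did not pass the test (edgeR adjusted p 0.171). Its unadjusted edgeR p was 0.0678, and the interval is narrower than the test's. With the GC correction it passed (0.20, edgeR adjusted p 0.0475). XBP1 (chr22:28794555-28800597), the factor made active by IRE1, ran from 98.7 to 100.5 CPM in normoxia siControl and from 88.2 to 89.5 CPM in hypoxia siControl. These groups did not overlap, and the log2 fold change of -0.16 did not pass the test (SE 0.0588, edgeR adjusted p 0.0609). It passed with scaling by total counts (-0.19, edgeR adjusted p 0.0105), without normoxia siARNT B (-0.17, edgeR adjusted p 0.0424) and without hypoxia siARNT C (-0.16, edgeR adjusted p 0.0259). In siARNT the hypoxia change of XBP1 was -0.20 (edgeR adjusted p 0.0771), and with the GC correction it was -0.28 and passed (edgeR adjusted p 5.89e-04). With siARNT in normoxia XBP1 changed by 0.04 without a call, and with the GC correction by 0.19 with one (edgeR adjusted p 0.00492).

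The members that act back on the response or on growth were TRIB3, SESN2 and PPP1R15A. TRIB3 (chr20:362835-397559), a pseudokinase that inhibits ATF4 and AKT, ran from 16.5 to 26.8 CPM. PPP1R15A (chr19:48872392-48876057), also called GADD34, brings a phosphatase to eIF2 and so ends the response, and ran from 19.8 to 33.3 CPM. SESN2 (chr1:28259527-28282491), which senses leucine and inhibits mTORC1, ran from 3.33 to 6.82 CPM. All 3 had their highest value in normoxia siARNT B, and none of them passed the test in any of the 5 comparisons. Their 95% intervals for hypoxia in siControl were -0.23 to 0.26 for TRIB3, -0.08 to 0.56 for PPP1R15A and -0.43 to 0.52 for SESN2 on the log2 scale. Under the GC correction the log2 fold changes of siARNT in normoxia changed sign for TRIB3 (0.19 to -0.29), PPP1R15A (0.25 to -0.13) and SESN2 (0.27 to -0.17), and none of these values passed the test. Without normoxia siARNT B they were 0.02 for TRIB3, 0.04 for PPP1R15A and -0.02 for SESN2.

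Over the 12 libraries, members were compared by the Pearson correlation of log2 CPM, as a description of libraries that share groups, depth and GC slope. ASNS and XBP1 had the highest correlation among the 45 pairs, at 0.867, and DDIT3 and ASNS the lowest, at -0.783. Among 9855 genes that averaged 5 CPM or more, those most like DDIT4 were SLC2A1 (r 0.988) and PPP2R5B (r 0.986). SLC2A1 encodes the glucose transporter GLUT1, a known HIF target. For ASNS they were HENMT1 (0.985) and TSR1 (0.984), for CHAC1 DNPH1 (0.986) and FADD (0.981), and for PPP1R15A UCKL1 (0.989) and WBP2 (0.977). For ATF4 they were RTL6 (0.966) and ZNF629 (0.957), for XBP1 FAM221A (0.972) and IMP3 (0.961), and for TRIB3 TSKU (0.968) and MLF2 (0.967). For DDIT3 they were TUBG2 (0.944) and DLGAP4 (0.943), for SESN2 MGAT1 (0.955) and PPP1R9B (0.948), and for ATF3 GPX2 (0.933) and NABP2 (0.929). No member was the nearest gene of another member.

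The other genes of the pathway were followed in lists chosen with earlier results of these data known, beginning with those upstream of ATF4. For hypoxia in siControl, 10.4% of all tested genes were called higher and 14.9% lower. For siARNT in hypoxia these shares were 14.4% and 14.7%. Counts in lists this small can lie near those shares, and no list was tested as a set. Of the 4 kinases of eIF2 alpha, 1 fell in hypoxia siControl, EIF2AK4 (GCN2, the sensor of uncharged tRNA, log2 fold change -0.34). Of 12 subunits and phosphatase parts of eIF2 and eIF2B, 6 fell and none rose in hypoxia siControl (median -0.14), including EIF2B3 (-1.04) and EIF2S1 (-0.51). With siARNT in hypoxia, 2 of 4 kinases rose, and 4 of the 12 rose and 1 fell. EIF2B3 stood at 24.6 ± 0.465 CPM in normoxia siControl and at 12.0 ± 0.811 CPM in hypoxia siControl (SD, n = 3). In the interaction EIF2B3 was called at 0.74 (edgeR adjusted p 0.0032). Of 12 tested partners of ATF4 and other bZIP factors, 2 rose and none fell in hypoxia siControl, JDP2 (0.59) and CREB3 (0.22). With siARNT in hypoxia 1 rose, CREB3L1 (0.91), and 4 fell, among them CEBPD (-0.95). Leaving out 1 library at a time, 5 to 6 of the 12 eIF2 and eIF2B genes fell in hypoxia siControl, 0 to 2 of the kinases and 2 to 5 of the 12 rose with siARNT in hypoxia, and 0 to 3 of the bZIP factors rose in hypoxia siControl.

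The targets of ATF4 in amino acid supply were followed in 3 lists. Of 20 cytosolic tRNA synthetases, the enzymes that load tRNA with amino acids, 14 fell and 1 rose in hypoxia siControl (median -0.38). Over all tested genes 14.9% fell and 10.4% rose. FARSB (-0.93) and WARS1 (-0.69) had the largest falls. In hypoxia siARNT 4 of 20 fell, where 1.89% of all tested genes fell. That count was 2 without hypoxia siARNT B and 0 when only the 6 siARNT libraries were fitted. With the GC correction 18 of 20 fell, while the calls over all 16999 genes went from 321 to 2359 lower. Leaving out 1 library at a time, 10 to 15 of the 20 fell in hypoxia siControl, and 1 to 5 rose with siARNT in hypoxia. With siARNT in hypoxia 4 rose and 3 fell, GARS1 (-0.63) having the largest change among those called. Over all tested genes 14.4% rose and 14.7% fell there. Of 11 tested genes of amino acid synthesis, 4 fell and 1 rose in hypoxia siControl. PSAT1, of serine synthesis, fell most (-1.36), from 32.0 ± 1.64 to 12.5 ± 0.615 CPM (SD, n = 3), and GOT1 fell by 0.69 on the log2 scale (log2 fold change -0.69). With siARNT in hypoxia 3 of the 11 were higher, PSAT1 (0.90), GOT1 (0.77) and PSPH (0.64), and 2 were lower, ALDH18A1 (-0.74) and CTH (-0.44). Of 8 tested amino acid transporters, 3 fell and 1 rose in hypoxia siControl, SLC7A11 (-0.42) and SLC38A2 (0.55) having the largest changes among those called. Without normoxia siControl A, 1 of these transporters fell.

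**Figure D3:**
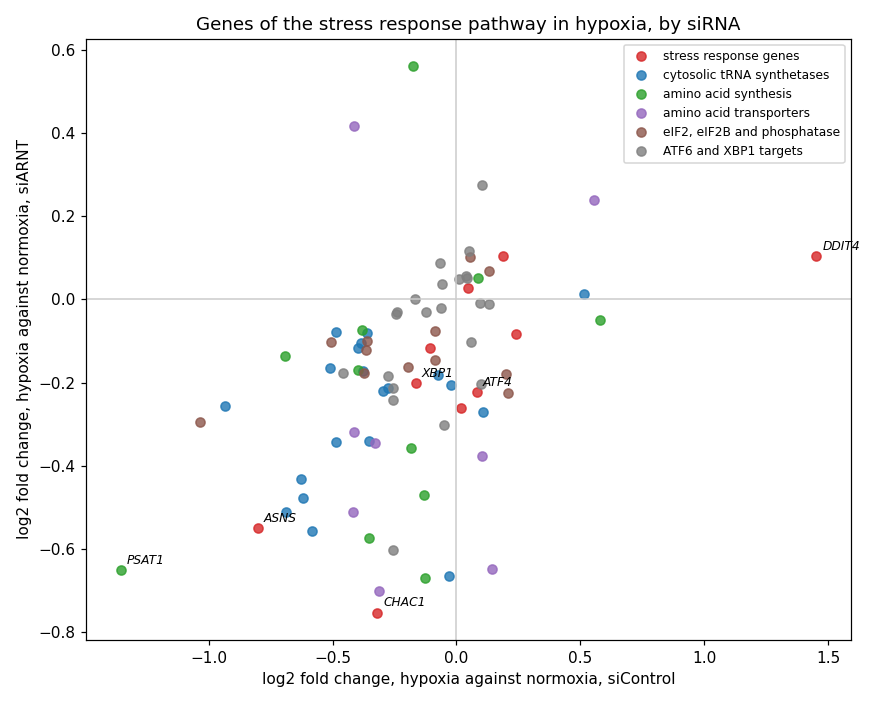
Each point is a gene of the stress response list, the tRNA synthetases, the amino acid synthesis or transporter genes, the eIF2 and eIF2B genes or the ATF6 and XBP1 targets, with its log2 fold change for hypoxia in siControl on the x axis and in siARNT on the y axis, coloured by list. Among these genes DDIT4 lies farthest right (1.45 and 0.10), and PSAT1 lies at the lower left (-1.36 and -0.65).

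Of all tested genes, 10.4% rose and 14.9% fell in hypoxia siControl, and 14.4% rose and 14.7% fell with siARNT in hypoxia. Of 13 tested other targets of ATF4 and DDIT3, 1 rose and 2 fell in hypoxia siControl. ERO1A, an oxidase of ER protein folding, rose by 0.92 and was 0.68 lower with siARNT in hypoxia (log2 fold change -0.68). WARS1, counted above, is in this list too. With siARNT GDF15, a secreted stress factor, rose by 1.40 in hypoxia, from 0.196 ± 0.0347 to 0.527 ± 0.188 CPM (SD, n = 3). Both means are low, below the 0.622 CPM of the lowest CHAC1 library. Of 8 tested inputs of mTORC1 beside DDIT4 and SESN2, 2 fell in hypoxia siControl, DEPTOR (-0.29) and RHEB (-0.25), and with siARNT in hypoxia DEPTOR rose (0.45) and TSC1 fell (-0.45). Of 12 immediate early genes, 5 rose and 2 fell in hypoxia siControl. FOS rose from 8.43 ± 0.742 to 30.6 ± 3.06 CPM (SD, n = 3), a log2 fold change of 1.86, and JUNB rose by 1.09. With siARNT in hypoxia 4 fell and 1 rose, FOS at -1.63 and IER3 at -0.93. Leaving out 1 library at a time, 2 to 6 immediate early genes rose in hypoxia siControl and 0 to 2 fell, with 2 rises without normoxia siControl C or hypoxia siControl B, and 0 to 2 of the mTORC1 inputs fell.

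The unfolded protein response, to which XBP1 belongs, was described with 3 lists that reach beyond the branch of IRE1 and XBP1. The sensors were ERN1, EIF2AK3 and ATF6. EIF2AK3 is also among the eIF2 alpha kinases above, and ATF6 among the bZIP factors. None of the 3 sensors was called for hypoxia in siControl by edgeR or DESeq2, with 0 at an unadjusted p under 0.05. With total count scaling and with the GC correction 1 of them was called lower, ATF6 (-0.17 without either). ERN1, which encodes IRE1, was higher with siARNT by 0.47 in normoxia and by 0.57 in hypoxia. Of 22 targets of ATF6 and XBP1, none rose and 4 fell in hypoxia siControl (median -0.06), DNAJB11 (-0.46) and SEC61B (-0.28) having the largest falls. Over all tested genes 10.4% rose and 14.9% fell. With siARNT in hypoxia 6 of the 22 rose and none fell, including WFS1 (1.03) and EDEM1 (0.96), where 14.4% of all tested genes rose and 14.7% fell. Of 3 transcripts that IRE1 is known to degrade, none was called for hypoxia in siControl by edgeR (2 at an unadjusted p under 0.05, and 1 called by DESeq2), and 2 were higher with siARNT in hypoxia, SCARA3 (2.45) and BLOC1S1 (0.58). With siARNT in normoxia 9.42% of all tested genes were higher, and so were 3 of these 3, SCARA3 (1.65), COL6A1 (1.05) and BLOC1S1 (0.79). Leaving out 1 library at a time, 1 to 3 of them were called with siARNT in normoxia, 1 without normoxia siControl A or C, and 1 to 2 in hypoxia. Leaving out 1 library at a time, 1 to 5 of the 22 fell in hypoxia siControl, with 1 without normoxia siControl A. With siARNT in hypoxia 4 to 7 of the 22 then rose and 0 to 2 fell. With the GC correction 12 rose and 3 fell with siARNT in hypoxia, where 46% of all tested genes were called.

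The deposited tables of splicing events held 19 events of the members, in ATF4, ATF3, DDIT3, ASNS and XBP1. Of these, 18 passed the filters and were tested. The filters asked for at least 10 counts over both forms together and a mean inclusion share from 0.01 to 0.99. Counts on 1 form could be few, as in a tested DDIT3 event with 0 in normoxia siControl A and 5 in normoxia siControl B. No event was called by edgeR in any of the 5 comparisons, and none had an unadjusted p under 0.05. An added test with limma on the log odds called none either, with 2 events at an unadjusted p under 0.05 for hypoxia in siControl. Over all 37151 events, 0.0188% were called for hypoxia in siControl, 0.00808% for hypoxia in siARNT, 0.00269% for siARNT in normoxia, 0.0242% for siARNT in hypoxia and 0.0188% for the interaction. The untested event was an intron of ATF4, with an inclusion share of 98.8 to 100% per library.

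Removal of the 26-base segment of XBP1 shifts the reading frame and yields the active factor, and the segment is deposited as a retained intron (chr22:29192110-29192135 in the files' build, which no header names). The repeat at its ends lets the same removal be written in 7 ways, so the capitals above show 1 of them. Reads over the spliced junction numbered 7, 9 and 5 in normoxia siControl and 17, 36 and 13 in normoxia siARNT. They numbered 14, 18 and 3 in hypoxia siControl and 5, 8 and 9 in hypoxia siARNT. These reads are not scaled for depth. Junction reads plus mean segment coverage, per M gene counts, came to 0.579 to 0.936 in normoxia siControl and 1.20 to 2.46 in normoxia siARNT. In hypoxia they came to 0.637 to 1.14 in siControl and 0.62 to 1.08 in siARNT. The higher junction reads of normoxia siARNT thus went with higher coverage of the site. Counts of the whole XBP1 gene did not differ likewise, at 98.7 to 104 CPM in normoxia siARNT and 98.7 to 100 CPM in normoxia siControl. Their log2 fold change was 0.04, or 0.19 with the GC correction. What raised the coverage of the site was not tested. Against the mean coverage of the segment, the spliced share in siControl was 16.7 ± 3.90% at normoxia and 23.0 ± 12.1% at hypoxia (SD, n = 3). In siARNT it was 20.8 ± 4.21% at normoxia and 20.2 ± 4.60% at hypoxia. The share in single hypoxia siControl libraries was 25.7, 33.5 and 9.7%, so that group enclosed all others. For hypoxia in siControl the log2 odds of keeping the segment changed by -0.68 (SE 0.510, edgeR adjusted p 0.957). With 3 to 36 spliced reads per library, no difference was detected.

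**Figure D4:**
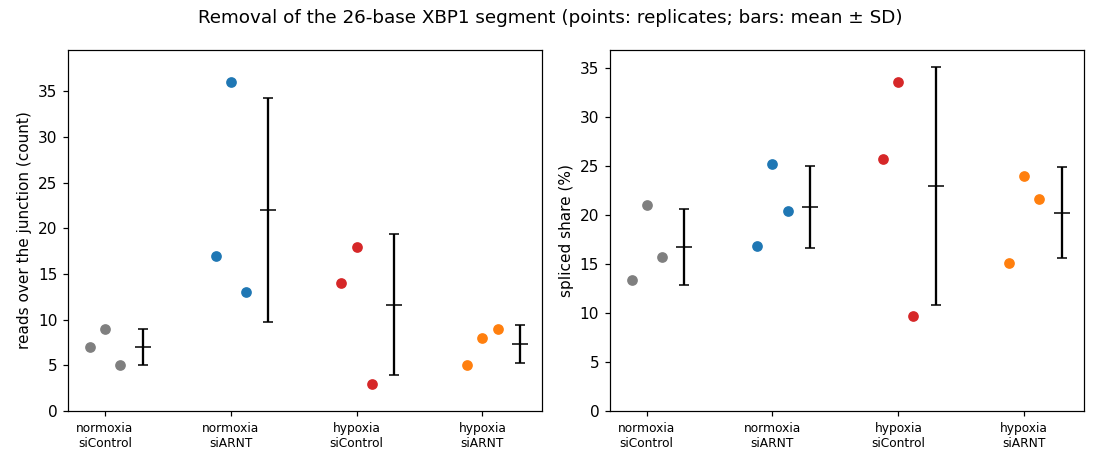
Left, reads over the junction that lacks the 26-base segment of XBP1; right, their share of the junction reads plus the mean coverage of the segment, in percent, with 1 point per library and bars for mean ± SD of 3 replicates. The share overlaps between all 4 groups, from 9.7 to 33.5%. The reads at left are not scaled for depth or coverage.

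In DDIT3, the most read pair of 3' splice sites lay 14 bases apart. The better used site took 71.5 ± 2.54% of their junction reads in normoxia siControl and 67.0 ± 2.35% in normoxia siARNT (SD, n = 3). In hypoxia it took 72.5 ± 0.436% in siControl and 71.0 ± 3.36% in siARNT. The log2 odds of the other, less used site changed by 0.32 for siARNT in normoxia (SE 0.232, edgeR adjusted p 0.856), and the groups of this comparison overlapped.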

How the data were processed

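RNA of 12 AsPC-1 libraries was analysed from deposited values. The deposited counts are whole numbers of reads per gene, and HTSeq appears in the file names. The submitters' processing notes name Trimmomatic, STAR 2.4.2a and GRCh38.p10, and the version, strand setting and annotation of the counter are not given in the sources used here. ATF4, ASNS and XBP1 have pseudogene copies, and how reads shared with them were treated is likewise not given. Lines that name no gene held 22.71 to 25.2% of a library and were left out. The event tables hold deposited counts of junction reads, intron coverage (a signal, per the file headers) and the inclusion share as a fraction, per the file headers. Event coordinates do not match GRCh38 and are printed as deposited.

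The test was edgeR 4.0.16 under R 4.3.3, after TMM scaling and filterByExpr, with robust quasi-likelihood fits to 12 libraries with 1 mean per group. Standard errors are the log2 fold change over the root of F, and 95% intervals use the normal quantile. The test itself allows for the few libraries, so these intervals are narrower than the test's. An interval can exclude 0 where the unadjusted test does not pass. Exon length and GC content came from GENCODE 29 and covered 97.27% of tested genes, and promoters came from RefSeq (GRCh38.p14), where all 10 members matched. Events with at least 10 counts and an inclusion share from 0.01 to 0.99 were tested with edgeR as inclusion against exclusion, with a term per library. The procedures were tested on simulated data. Simulated event changes were placed only in well-read events with intermediate inclusion shares, unlike most member events. They do not show how small a change in those member events could be found.

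Alternatives were total count scaling, no filter, DESeq2 1.42.0, only the samples compared, replicate blocks, a GC correction, a log2 fold change of at least 1, leaving out each library and, chosen after seeing the data, limma 3.58.1 on event log odds. The members and all lists were chosen with earlier results of these data known. In each list the text names the 2 called genes with the largest change for hypoxia in siControl and for siARNT in hypoxia, and for each member the 2 genes with the highest correlation. The values of 1 gene taken by this rule are not reported here. Within each group, every pair of replicates differed by more than counting noise (chi-square over its degrees of freedom 4.3 to 89.11). The reads carry no molecular identifiers. No value column of the event tables was without a sample (0 columns).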

Additional observations from a re-analysis of the deposited data

Results flagged for a closer look

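For the genes named above, the change in hypoxia was compared between siControl and siARNT by the interaction term, and genes that passed edgeR's test (adjusted p under 0.05 over 16999 genes) are given here. The value is the hypoxia log2 fold change in siARNT minus that in siControl. Among the stress response genes only DDIT4 passed, at -1.35. Of the pathway genes named by the rule, the difference was 0.74 for EIF2B3, 0.70 for PSAT1, 0.56 for GOT1, 0.68 for FARSB and 0.41 for DEPTOR, all of which fell in hypoxia in siControl. It was -0.69 for ERO1A and -1.71 for FOS, both of which rose in hypoxia in siControl. Of the genes that served as checks, it was -2.99 for PFKFB4 and -2.57 for EGLN3, both HIF targets, and -1.21 for MUC1 and -0.42 for CDH1, both epithelial markers.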

How the results depend on the processing

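The number of the 10 members called was 2 for hypoxia in siControl, 1 for hypoxia in siARNT, 2 for siARNT in normoxia, 2 for siARNT in hypoxia and 1 for the interaction. DDIT4 kept its call for hypoxia in siControl, for siARNT in hypoxia and for the interaction in every alternative run. With the GC correction the number was 4 for hypoxia in siControl, 4 for hypoxia in siARNT and 3 for siARNT in hypoxia, where 42.2, 22.3 and 46% of all genes were called. With the GC correction and the replicate block it was 5, 4 and, for siARNT in normoxia, 4, where ATF4 (-0.198) and TRIB3 (-0.290) were called with the opposite sign to the values in the report. With total count scaling it was 3 for hypoxia in siControl, 2 for hypoxia in siARNT and 1 for siARNT in hypoxia, and with DESeq2 2 for hypoxia in siARNT and 2 for the interaction. With only the samples compared it was 3 and 0 for hypoxia in siControl and in siARNT, and 1 and 1 for siARNT in normoxia and in hypoxia. Requiring a log2 fold change of at least 1 left 1 for hypoxia in siControl, 0 for hypoxia in siARNT, 0 for siARNT in normoxia and 1 for siARNT in hypoxia. Leaving out each library gave 2 to 3, 1 to 1, 0 to 2, 2 to 3 and 1 to 2 in the order above. The cause of these changes was not tested. No member event was called in any setting, limma included. Of 16999 genes, siARNT in hypoxia had 2452 higher and 2496 lower calls, or 3473 and 1973 with total count scaling. Hypoxia in siARNT had 375 and 321, or 634 and 330, and the interaction 424 and 373, or 1125 and 370. Of 18 pairs of libraries with the same letter in different groups, 9 deviated together (correlation over 0.1, range -0.431 to 0.529). So did 12 of 36 pairs with different letters (range -0.636 to 0.626). Wells were divided after transfection, so libraries with the same siRNA and letter may share a well, which these correlations cannot decide. The main test used no pairing, and blocks were run beside it. The replicate block by letter changed none of the 50 member calls and gave 2, 1, 2, 2 and 1 members called, while all genes called went from 3431 to 4732 for siARNT in normoxia. A block for the transfected well left 2, 1 and 1 members called for hypoxia in siControl, hypoxia in siARNT and the interaction, and took all genes called from 696 to 136 for hypoxia in siARNT and from 797 to 373 for the interaction. Among the members depth was lowest for CHAC1, with 29 to 167 counts per library. The XBP1 segment had 3 to 36 spliced reads, and some other tested events had 0 counts on 1 form in single libraries.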
